A study of Homo sapiens with 40 samples.

Results

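The 38 genes described here encode the aminoacyl-tRNA synthetases and 2 of the proteins that hold them together, and were taken as the rows of the count files that carry their symbols, 38 of 55765 symbols in all. They comprised 20 cytosolic enzymes or subunits, 16 mitochondrial enzymes whose symbols end in 2, and the scaffold proteins AIMP1 and AIMP2. AIMP2 was kept with AIMP1 although its symbol also ends in 2. GARS and KARS encode both the cytosolic and the mitochondrial enzyme and were counted as cytosolic. Every member passed the filter on low counts in each of the 3 experiments.

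Aminoacyl-tRNA synthetases join each amino acid to its tRNA, the step that fixes which amino acid a codon receives. The cytosol and the mitochondrion run largely separate sets of these enzymes, and the mitochondrial set is encoded in the nucleus and imported as protein. Several cytosolic enzymes are bound in a multisynthetase complex around the scaffolds AIMP1 and AIMP2. Many cytosolic synthetase genes are also known targets of ATF4, the transcription factor of the amino acid response.

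All 40 RNA-Seq libraries came from HEK293 cells, an established human embryonic kidney line, and fell into 12 groups. In the RNA immunoprecipitation (RIP) experiment, untransfected cells gave total RNA and RNA recovered with antibodies (IP) to the endogenous DEAD-box helicases eIF4A1, eIF4A2 or DDX6, with 3 libraries per group. In the gradient experiment, cells harvested 2 days after transfection with control siRNA or with siRNA to CNOT1, the scaffold of the Ccr4-Not deadenylase complex, gave input RNA, pooled subpolysomal fractions and pooled polysomal fractions, with 4 libraries per group. In the remaining experiment, cells transfected with control siRNA, or with siRNAs to TNRC6A and TNRC6B together, gave total RNA, with 2 libraries per group. HEK293 cells are set apart by adenoviral sequence, which a table of human genes does not count, so the cell line was not checked against a marker. The labels do not say whether replicates were separate cultures, so p-values measure the spread between these libraries.

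Values are counts scaled to a fixed library size (CPM) with TMM factors, and the libraries held 15.4 to 46.0 M counts each. CNOT1 fell after its siRNA, from 687, 711, 662 and 628 CPM to 41.4, 36.8, 39.9 and 40.4 CPM in input RNA. In polysomal RNA, CNOT1 was at 28.3 CPM in the library labelled control siRNA polysomal replicate 3 and at 631 CPM in the library labelled CNOT1 siRNA polysomal replicate 3, against 470, 501 and 479 CPM and 29.0, 24.0 and 31.6 CPM in the other libraries of those groups. Both libraries therefore go against their labels. The gradient results below rest on the other 22 libraries, and values with all 24 are given beside the main counts of members. Gradient calls of the amino acid response and partner genes are given from the 22 libraries alone. TNRC6A was at 178 and 189 CPM with control siRNA and at 40.5 and 64.7 CPM with TNRC6A/B siRNA, and TNRC6B at 67.6 and 73.1 CPM against 17.7 and 26.3 CPM.

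The promoters of the members differed between the classes in one feature that the choice of members did not use. The letters TGATGNAA, which match the C/EBP-ATF element of the amino acid response, were searched on both strands of the RefSeq promoters of GRCh38.p14, from 250 bases before to 50 bases after each start, and no other motif was searched. They were found in 7 of the 16 cytosolic members with a promoter entry (43.8%; AARS, CARS, GARS, IARS, MARS, NARS and TARS), in 1 of 14 mitochondrial members (7.14%; YARS2) and in neither scaffold gene. Among all 27305 symbols of the table, 1217 (4.46%) held them. DARS, LARS, VARS, YARS, AARS2 and VARS2 had no entry. The 30-base windows around the match are shown because they set the cytosolic genes side by side with the mitochondrial one, read along the gene with the match in capitals, either as TGATGNAA or as its reverse complement TTNCATCA.
AARS, chr16:70289675-70289704, minus strand: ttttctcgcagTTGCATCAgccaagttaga
CARS, chr11:3057407-3057436, minus strand: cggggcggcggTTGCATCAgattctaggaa
GARS, chr7:30594834-30594863, plus strand: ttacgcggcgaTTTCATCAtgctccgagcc
IARS, chr9:92293692-92293721, minus strand: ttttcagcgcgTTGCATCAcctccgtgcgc
MARS, chr12:57488053-57488082, plus strand: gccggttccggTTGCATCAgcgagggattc
NARS, chr18:57621804-57621833, minus strand: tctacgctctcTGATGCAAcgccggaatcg
TARS, chr5:33440956-33440985, plus strand: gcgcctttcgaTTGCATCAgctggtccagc
YARS2, chr12:32756076-32756105, minus strand: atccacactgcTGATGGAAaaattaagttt
The capitals read TTGCATCA in AARS, CARS, IARS, MARS and TARS, and its reverse complement TGATGCAA in NARS, while GARS and YARS2 hold other letters at the free position. A match is a description of letters, not of a bound site.

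The cytosolic enzymes were the more abundant class. Per kilobase of mRNA, the median cytosolic member of RIP total RNA stood at 101 CPM per kb and the median mitochondrial member at 17.9 CPM per kb. The cytosolic levels ran from 17.3 CPM per kb for FARSB, the beta subunit of phenylalanyl-tRNA synthetase, to 165 for the threonyl enzyme TARS, and the mitochondrial levels from 4.1 for SARS2 to 96.6 for IARS2. FARSB was divided by an annotated mRNA of 6761 nt, 4972 nt of it 3′UTR, and its use in these cells was not checked. The control siRNA input libraries gave medians of 99.3 and 17.6 CPM per kb, with FARSB, TARS, SARS2 and IARS2 again at the ends. In the control siRNA total RNA of the TNRC6 experiment the medians were 93.4 and 16.8 CPM per kb, with CARS lowest at 20.2 and EPRS highest at 206. Neighbours in these orders were not tested against each other.

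The classes also differed in their mRNAs, as read from the canonical transcripts of GENCODE 44 on GRCh37. The median coding sequence was 2078 nt in the cytosolic class, 1634 nt in the mitochondrial class and 1323 nt over all 17705 coding genes. The median 3′UTR was 323, 681 and 1080 nt in the same order, and the GC content of the coding sequence was 49.0, 54.2 and 52.7%. Cytosolic synthetase mRNAs thus combined a long coding sequence with a short 3′UTR.

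The first question is which synthetase mRNAs were recovered with each helicase. All 20 cytosolic mRNAs and both scaffold mRNAs were lower in the eIF4A1 IP, in the eIF4A2 IP and in the DDX6 IP than in RIP total RNA, while the mitochondrial mRNAs were mostly lower too but by less, with 13 of 16 fitted below 0 in each IP and 7 to 9 called lower. Each test is the edgeR quasi-likelihood test over 17474 genes, called at a Benjamini-Hochberg false discovery rate (FDR) below 0.05. A lower CPM in an IP is a smaller share of that library, so less of the mRNA cannot be told apart from more of other RNA, and no IP with a control antibody was analysed here.

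In the eIF4A1 IP, 31 members were lower and 1 was higher, where 26.5% of all genes tested were called lower and 26.1% higher. The cytosolic class had 20 lower of 20 with a median log2 fold change of -1.38, and the mitochondrial class 9 lower and 1 higher of 16 with a median of -0.44, while the median of all genes was 0.04. EPRS, the bifunctional glutamyl-prolyl enzyme, was at 689, 767 and 833 CPM in total RNA and at 143, 137 and 209 CPM in the eIF4A1 IP. Its log2 fold change of -2.23 (SE 0.2, FDR 2.51e-06) was the largest fall of any member. RARS, the arginyl enzyme, was at 114, 131 and 105 CPM in total RNA and at 26.8, 27.4 and 26.6 CPM in the IP (log2 -2.12, SE 0.13, FDR 7.84e-07). The total and IP libraries of both genes lay far apart.

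Among the mitochondrial members, YARS2, the tyrosyl enzyme, fell from 49.0, 50.5 and 40.3 CPM to 18.6, 21.1 and 17.3 CPM in the eIF4A1 IP (log2 -1.29, FDR 7.91e-06). WARS2, the tryptophanyl enzyme, went from 46.1, 49.0 and 40.7 CPM to 18.1, 22 and 21.3 CPM (log2 -1.15). These mitochondrial genes moved about as far as the median cytosolic gene. PARS2, the prolyl enzyme, was the member called higher, at 13.1, 14.2 and 10.1 CPM in total RNA and 17.0, 17.4 and 14.2 CPM in the IP (log2 0.38, FDR 0.049). Its groups, 10.1 to 14.2 and 14.2 to 17.4 CPM, meet at their edges, and the call was lost with DESeq2 (adjusted p = 0.064), with RLE factors (0.0605), without the filter (0.0968), on the compared libraries alone (0.0721), and without total RNA replicate 1 or 3 or eIF4A1 IP replicate 1 or 2.

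The scaffold mRNAs behaved like those of the cytosolic enzymes they bind. AIMP2 was at 67.8, 76.0 and 48.2 CPM in total RNA and at 19.2, 26.4 and 18.4 CPM in the eIF4A1 IP (log2 -1.58, SE 0.19). AIMP1 was at 84.4, 99.2 and 98.6 CPM and at 45.6, 43.7 and 49.8 CPM (log2 -1.02, SE 0.13). Membership of the multisynthetase complex made little difference to the medians, which were -1.37 for the 8 cytosolic enzymes in the complex and -1.38 for the 12 outside it.

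In the eIF4A2 IP, 29 members were lower and 2 higher, against 25.8% and 24.5% of all genes. The cytosolic class was again lower in 20 of 20, with a median of -1.34, and the mitochondrial class had 7 lower and 2 higher of 16, with a median of -0.29. KARS, the lysyl enzyme of both compartments, fell furthest, from 236, 272 and 204 CPM in total RNA to 55.0, 63.0 and 59.3 CPM in the eIF4A2 IP (log2 -2.0, SE 0.16, FDR 9.5e-07). EPRS was at 226, 179 and 202 CPM in this IP (log2 -1.91). Both were several times below every total RNA library.

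VARS2, the mitochondrial valyl enzyme, was higher with eIF4A2, at 43.4, 41.5 and 33.7 CPM in total RNA and 60.2, 53.5 and 71.1 CPM in the IP (log2 0.64, SE 0.16, FDR 0.00519). PARS2 was at 15.5, 17.8 and 16.7 CPM in the eIF4A2 IP (log2 0.42, FDR 0.0332), a call lost without total RNA replicate 1 or 3 or eIF4A2 IP replicate 2 or 3. Each lay above its total RNA libraries throughout. YARS2 at 19.2, 17.9 and 17.8 CPM (log2 -1.35) and WARS2 at 18.2, 18.5 and 17.6 CPM (log2 -1.32) were the mitochondrial members lowest relative to total RNA. AIMP2 was at 16.5, 20.4 and 19.7 CPM (log2 -1.76) and AIMP1 at 54.3, 49.1 and 44.6 CPM (log2 -0.93).

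In the DDX6 IP, 30 members were lower and 0 higher, where 23.3% of all genes were lower and 22.7% higher. At an unadjusted p under 0.05, 1 member lay above 0, RARS2 (log2 0.41, FDR 0.0648), PARS2 was at 0.32 (FDR 0.0938), and DESeq2 also called 0 members higher. With the replicate number as a block, which the pairing of these libraries allows, though the total RNA library titled replicate 3 is called replicate 2 in another of its labels, RARS2 (FDR 0.00723) and PARS2 (FDR 0.0258) made 2 members higher and 34 were lower. The cytosolic class was lower in 20 of 20 with a median of -1.06, and the mitochondrial class in 8 of 16 with a median of -0.41. CARS (log2 -0.49) lost its call without the filter (FDR 0.0598), and without total RNA replicate 1 or 3 or DDX6 IP replicate 1 or 2. Leaving out 1 library at a time gave 27 to 30 members lower. EPRS was at 215, 168 and 244 CPM (log2 -1.87, FDR 1.95e-05). MARS, the methionyl enzyme, went from 332, 320 and 270 CPM in total RNA to 96.6, 88.2 and 109 CPM (log2 -1.65, SE 0.17). YARS2 was at 25.2, 25.5 and 21.4 CPM (log2 -0.96), and TARS2, the mitochondrial threonyl enzyme, went from 117, 115 and 90 CPM to 71.1, 56.7 and 55.7 CPM (log2 -0.81). AIMP2 was at 27.3, 34.4 and 27.3 CPM (log2 -1.11) and AIMP1 at 50.3, 47.5 and 48.4 CPM (log2 -0.95). The 3 IP comparisons share the same total RNA libraries, so they are not independent of one another.

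**Figure D1:**
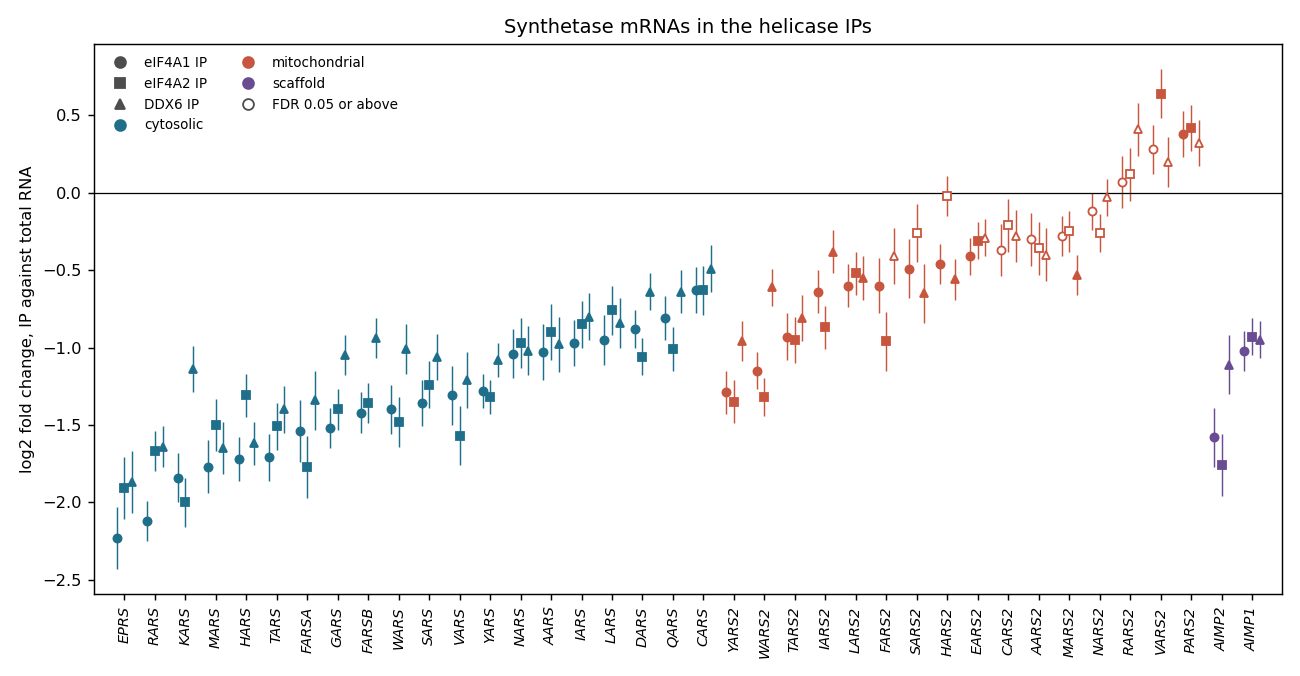
Log2 fold change of each member in the eIF4A1 IP (circles), eIF4A2 IP (squares) and DDX6 IP (triangles) against RIP total RNA, with standard errors as bars and open symbols where the FDR was 0.05 or above. All 20 cytosolic members and both scaffold members lie below 0 in each IP, and the mitochondrial members run from YARS2 at -1.35 with eIF4A2 to VARS2 at 0.64 with eIF4A2.

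The contrast between the classes also held amino acid by amino acid. For 15 pairs of a cytosolic gene and the mitochondrial gene for the same amino acid (FARSA and FARSB each paired with FARS2), the cytosolic log2 fold change was the lower one in 14 pairs with eIF4A1, in 13 with eIF4A2 and in 15 with DDX6. The median differences were -0.82, -0.56 and -0.57. Summed over the class, cytosolic synthetase mRNA was 5686 ± 297 CPM (SD, n = 3) in total RNA and 2224 ± 196, 2345 ± 206 and 2596 ± 141 CPM in the eIF4A1, eIF4A2 and DDX6 IPs. Mitochondrial synthetase mRNA was 1154 ± 88.8 CPM in total RNA and 829 ± 8.33, 827 ± 17.1 and 905 ± 31.0 CPM in the same IPs. The ratio of the sums was 4.82 to 5.1 in the total RNA libraries, and the 9 IP libraries lay between 2.49 and 3.05.

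**Figure D2:**
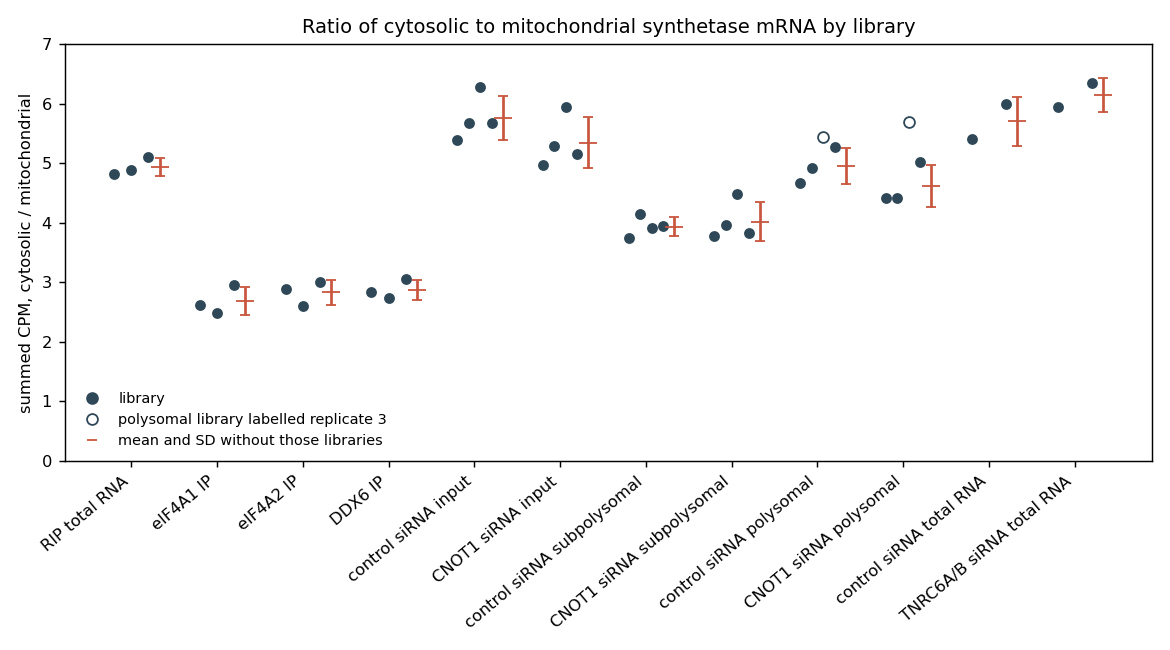
Summed CPM of the 20 cytosolic members divided by that of the 16 mitochondrial members in every library (points) of the 12 groups, with mean and SD per group. The IP libraries sit at 2.49 to 3.05 and the subpolysomal libraries at 3.75 to 4.49, below the total and input RNA libraries of their own experiment, and open points are the polysomal libraries labelled replicate 3. Without the open points, control polysomal libraries (4.67 to 5.27) also lie below control input (5.39 to 6.27). With CNOT1 siRNA, polysomal (4.41 to 5.02) and input libraries (4.97 to 5.95) overlap.

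Tested directly against each other, the IPs differed in few members. Between the eIF4A2 and eIF4A1 IPs, 0 members were called in either direction, where 0.973% of all genes were higher with eIF4A2 and 0.0858% lower. At an unadjusted p under 0.05 there were 4 such members, and DESeq2 called RARS and HARS2 higher with eIF4A2. Between the DDX6 and eIF4A1 IPs, 0 members were called, where 0.0801% of all genes were higher with DDX6 and 0.0114% lower. The fitted value was above 0 for 20 of 20 cytosolic members (median 0.2). These values come from the same libraries, and the share of all genes above 0 was not set beside them. DESeq2 called 5 members higher with DDX6. The replicate numbers pair the libraries of this experiment. With the replicate number as a block, the calls rose to HARS, RARS and HARS2 for eIF4A2 over eIF4A1, and to 7 members for DDX6 over eIF4A1 (FARSB, GARS, KARS, RARS, WARS2, YARS2 and AIMP2).

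The eIF4A2 and DDX6 IPs differed in 8 members, 7 lower and 1 higher with eIF4A2, against 11.3% and 9.82% of all genes. KARS was at 55.0, 63.0 and 59.3 CPM with eIF4A2 and at 102, 117 and 103 CPM with DDX6 (log2 -0.86, SE 0.15, FDR 0.00353), with no overlap. WARS, the cytosolic tryptophanyl enzyme, was at 47.1, 41.6 and 59.3 CPM against 66.1, 67.0 and 71.8 CPM (log2 -0.47, FDR 0.0484). WARS2 showed the same order, at 18.2, 18.5 and 17.6 CPM against 29.0, 29.7 and 30.1 CPM (log2 -0.71, FDR 0.00323). The mitochondrial isoleucyl gene IARS2 was at 185, 176 and 201 CPM against 280, 226 and 280 CPM (log2 -0.48, FDR 0.0319), and AIMP2 at log2 -0.65 (FDR 0.0301). HARS2, the mitochondrial histidyl enzyme, went the other way, at 36.9, 37.5 and 49.5 CPM with eIF4A2 and 28.4, 27.5 and 29.2 CPM with DDX6 (log2 0.54, FDR 0.0131). DARS and FARSB made up the 7 lower members. Leaving out any 1 of the 6 IP libraries lowered the 7 to between 2 and 4, and with the replicate block 14 members were lower and 4 higher.

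The next question is how the mRNAs were distributed on the sucrose gradient in control cells. Most cytosolic mRNAs were polysomal, and the mitochondrial mRNAs split. Each library is scaled to a fixed size, so polysomal here means a larger share of the polysomal than of the subpolysomal library. Subpolysomal means the reverse, and neither word says which fractions held most of an mRNA. In polysomal against subpolysomal RNA, 25 members were higher and 7 lower, where 33.7% of the 17115 genes tested were higher and 38.4% lower. The cytosolic class had 17 higher and 1 lower of 20 (median log2 0.63), the mitochondrial class 7 higher and 6 lower of 16 (median 0.18), and the median of all genes was -0.1. With both polysomal replicate 3 libraries, each class had the same counts, the cytosolic median was 0.74, and 34.8% and 37.0% of 16776 genes were called higher and lower.

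WARS was the most polysomal enzyme mRNA, at 54.0, 63.8, 57.1 and 57.0 CPM in subpolysomal RNA and 172, 187 and 174 CPM in polysomal RNA (log2 1.63, SE 0.09, FDR 2.41e-13). VARS, the cytosolic valyl enzyme, was at 65.1, 65.4, 88.1 and 85.4 CPM and at 261, 224 and 181 CPM (log2 1.56). In the control polysomal library left out, WARS was at 185 CPM and VARS at 280 CPM. QARS, the glutaminyl enzyme, was the exception in its class, at 508, 668, 503 and 606 CPM in subpolysomal RNA and 280, 269 and 256 CPM in polysomal RNA (log2 -1.08, SE 0.1, FDR 9.29e-10), with 280 CPM in the library left out. CARS (log2 -0.02, FDR 0.92) and LARS (log2 0.13, FDR 0.3) were not called.

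In the mitochondrial class, IARS2 was at 107, 120, 77.0 and 70.2 CPM in subpolysomal RNA and 269, 288 and 269 CPM in polysomal RNA (log2 1.57). LARS2, the leucyl enzyme, was at 41.8, 39.2, 39.1 and 39.5 CPM and at 96.7, 94.3 and 81.6 CPM (log2 1.2). At the other end, RARS2, the arginyl enzyme, was at 146, 163, 120 and 134 CPM in subpolysomal RNA and 47.7, 57.5 and 55.7 CPM in polysomal RNA (log2 -1.38, FDR 1.27e-10). MARS2, the methionyl enzyme, was at 111, 100, 86.8 and 108 CPM and at 49.0, 43.0 and 40.3 CPM (log2 -1.19). In the library left out, IARS2 was at 365, LARS2 at 118, RARS2 at 50 and MARS2 at 57.7 CPM, on the same side of the subpolysomal libraries. The cytosolic arginyl mRNA RARS was polysomal (log2 0.71), so the cytosolic and mitochondrial arginyl mRNAs had log2 values of opposite sign. PARS2 (log2 -0.83), SARS2 (-0.79), CARS2 (-0.54) and VARS2 (-0.31) completed the 6 lower members. VARS2 lost its call with DESeq2 (adjusted p = 0.0783), with RLE factors (0.0575), without the filter (0.479) and on the compared libraries alone (0.087). The VARS2 call also went with the replicate block (0.079), and without control subpolysomal replicate 3 or 4 or any single control polysomal library of the fit. AIMP2 was polysomal, at 34.8, 35.8, 36.7 and 34.4 CPM against 82.1, 82.7 and 70.3 CPM (log2 1.16), and AIMP1 was even, at 101, 106, 76.6 and 90.3 CPM against 84.2, 102 and 95.0 CPM (log2 0.02, FDR 0.887).

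**Figure D3:**
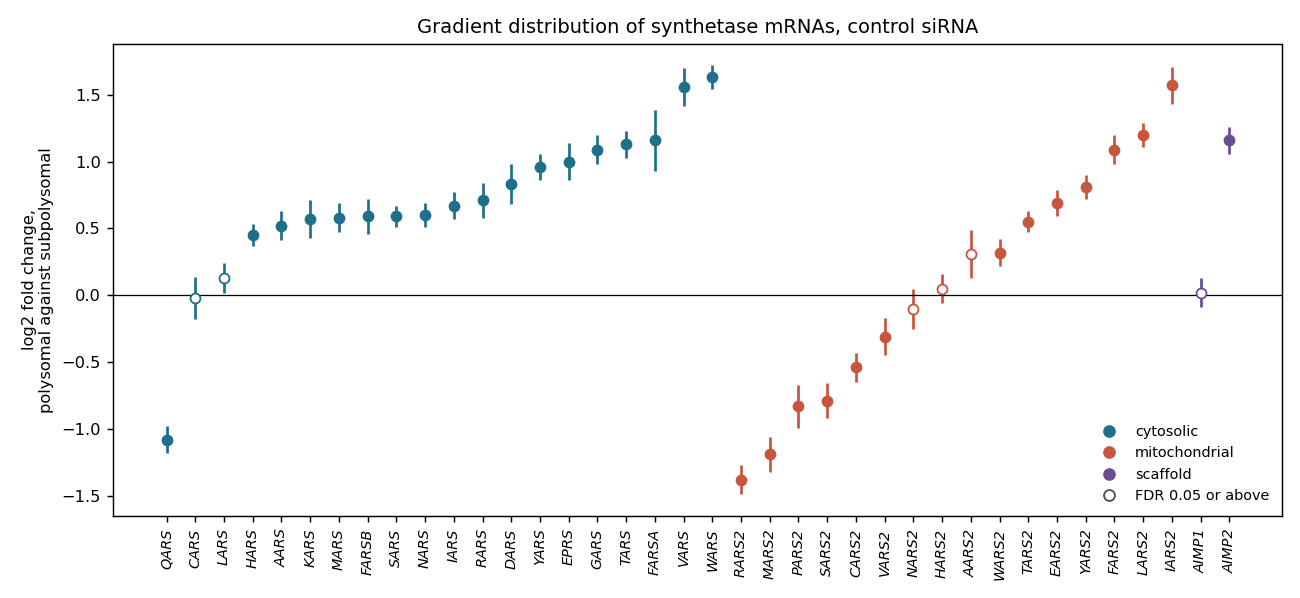
Log2 fold change of polysomal against subpolysomal RNA in control siRNA cells for each member by class, with standard errors as bars and open symbols where the FDR was 0.05 or above. QARS at -1.08 is the only cytosolic member called below 0, and the mitochondrial class runs from RARS2 at -1.38 to IARS2 at 1.57.

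Members lower in an IP tended to be those higher in polysomes. Across the 36 enzymes, the log2 fold change in the eIF4A1 IP and that in polysomal against subpolysomal RNA had a Pearson r of -0.61 and a Spearman rho of -0.57. The values were -0.67 and -0.65 for the eIF4A2 IP and -0.56 and -0.5 for the DDX6 IP. Over all 16473 genes tested in both experiments, r was -0.11, -0.29 and -0.03 and rho -0.25, -0.38 and -0.18. Within the 20 cytosolic members r was -0.44, -0.52 and -0.4, and within the 16 mitochondrial members -0.6, -0.65 and -0.5. Genes are not independent replicates, and no test was made. The RIP and gradient experiments share no library, whereas the points of a class share its mRNA features.

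**Figure D4:**
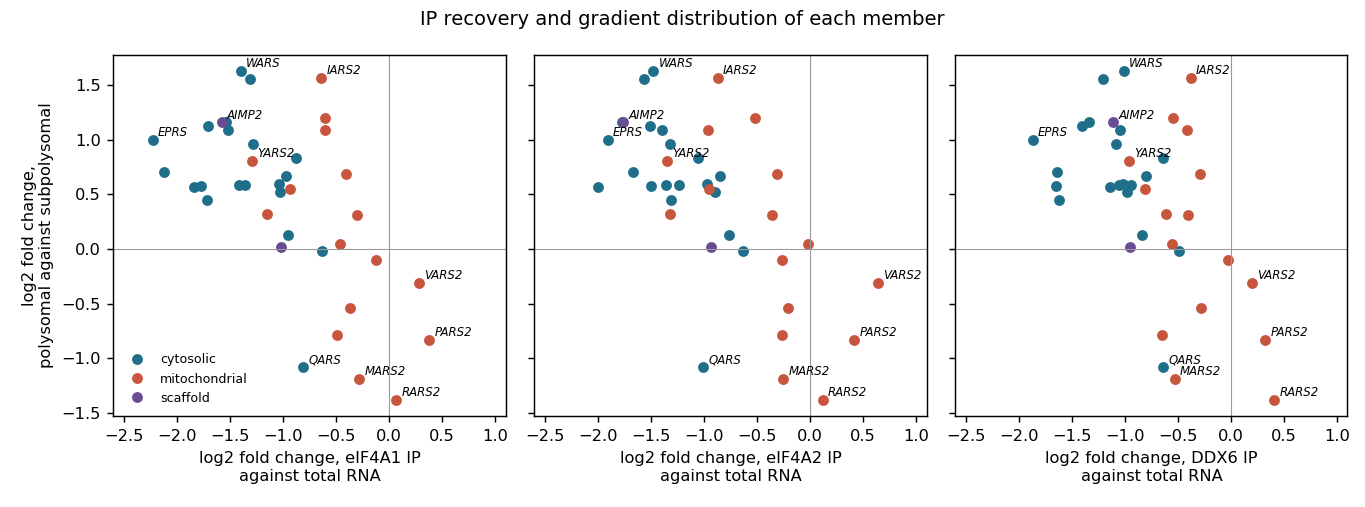
Log2 fold change in each IP against total RNA (x) and of polysomal against subpolysomal RNA (y) for every member, coloured by class. RARS2, PARS2 and VARS2 sit at the lower right of each panel, EPRS and WARS at the upper left, and QARS lies below the other cytosolic members.

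Depletion of CNOT1 asks what loss of the Ccr4-Not scaffold did to these mRNAs. In input RNA the changes were small, with 7 members higher and 5 lower, against 19.6% and 21.1% of all genes, so neither count stood far from the share of all genes. The cytosolic class had 1 higher and 3 lower (median log2 0.05), the mitochondrial class 5 higher and 2 lower (median 0.17), and all genes a median of -0.03. AIMP2 changed most, from 65.2, 65.4, 57.1 and 56.2 CPM with control siRNA to 99.0, 108, 96.0 and 94.5 CPM with CNOT1 siRNA (log2 0.7, SE 0.09, FDR 3.25e-06). AIMP1 was at 89.7, 92.5, 86.0 and 92.5 CPM and at 92.5, 88.9, 79.0 and 82.9 CPM (log2 -0.07, FDR 0.6).

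Among the enzymes, HARS rose from 146, 149, 137 and 135 CPM to 176, 178, 168 and 159 CPM in input RNA (log2 0.26, FDR 0.00499). IARS, the cytosolic isoleucyl enzyme, fell from 771, 766, 841 and 780 CPM to 613, 602, 715 and 662 CPM (log2 -0.29, FDR 0.0172). QARS fell from 333, 321, 323 and 298 CPM to 268, 269, 251 and 265 CPM (log2 -0.28, FDR 0.0147). The groups did not overlap in any of these 3 genes. PARS2 rose from 13.4, 10.9, 10.8 and 8.3 CPM to 16.4, 15.8, 14.2 and 13.5 CPM (log2 0.46, FDR 0.0135), and YARS2 from 45.9, 43.9, 41.0 and 44.9 CPM to 57.0, 51.4, 51.8 and 53.4 CPM (log2 0.28). CARS2, the cysteinyl enzyme, fell from 49.1, 48.1, 48.5 and 44.9 CPM to 33.5, 36.8, 31.7 and 34.9 CPM (log2 -0.48, FDR 0.000624). RARS2 fell from 60.0, 61.6, 61.3 and 62.9 CPM to 51.6, 50.4, 53.8 and 51.3 CPM (log2 -0.25, FDR 0.0465), and each omission of 1 library ended its call. Fitted with both polysomal replicate 3 libraries, 1 member was higher (AIMP2) and 2 lower (QARS and CARS2). With the replicate block 11 were higher and 6 lower, and on the input libraries alone 16 were higher.

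In subpolysomal RNA, 7 members were higher and 9 lower after CNOT1 siRNA, against 17.7% and 24.3% of all genes, so the members were called about as often as all genes in both directions. With both polysomal replicate 3 libraries in the fit, 2 of these calls were lost. The cytosolic median was 0.0 with 4 higher and 2 lower, and the mitochondrial median -0.16 with 3 higher and 6 lower. QARS fell most, from 508, 668, 503 and 606 CPM to 242, 276, 231 and 276 CPM (log2 -1.16, SE 0.09, FDR 3.89e-09). RARS2 fell from 146, 163, 120 and 134 CPM to 85.6, 97.6, 68.0 and 86.3 CPM (log2 -0.74), and VARS2 from 27.3, 27.7, 40.4 and 34.4 CPM to 19.4, 16.2, 22.6 and 24.9 CPM (log2 -0.64). AIMP1 fell from 101, 106, 76.6 and 90.3 CPM to 65.8, 68.2, 52.9 and 51.5 CPM (log2 -0.65), while AIMP2 was at 38.6, 31.9, 42.3 and 35.9 CPM after CNOT1 siRNA (log2 0.07, FDR 0.57). These genes thus held a smaller share of subpolysomal RNA with no overlap between the groups, apart from AIMP2.

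The members named here as rising in subpolysomal RNA were polysomal ones in control cells. Both comparisons use the same control subpolysomal libraries, so a low value there raises both log2 values and the link is not independent. IARS2 went from 107, 120, 77.0 and 70.2 CPM to 150, 178, 147 and 132 CPM (log2 0.7), and LARS2 from 41.8, 39.2, 39.1 and 39.5 CPM to 58.3, 59.3, 57.5 and 66.2 CPM (log2 0.6). VARS went from 65.1, 65.4, 88.1 and 85.4 CPM to 91.2, 88.0, 118 and 111 CPM (log2 0.43), where the highest control and the lowest CNOT1 siRNA library lie at 88.1 and 88.0 CPM. AARS, the alanyl enzyme, went from 104, 90.1, 109 and 94.2 CPM to 118, 125, 143 and 110 CPM (log2 0.32, FDR 0.011), a call lost with both polysomal replicate 3 libraries in the fit (FDR 0.103).

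In polysomal RNA, 11 members were higher and 1 lower after CNOT1 siRNA, where 17.1% of all genes were higher and 14.6% lower. With RLE in place of TMM factors, 7 members were higher and 1 lower and the split of all genes turned to 13.2% higher and 18.0% lower. With both replicate 3 libraries in the fit, 0 members were called in either direction by edgeR, as were 0.0% of all genes higher and 0.0% lower, with 1 member at an unadjusted p under 0.05. All results in this fraction therefore rest on leaving those libraries out. EPRS was at 278, 300 and 358 CPM with control siRNA and at 478, 425 and 491 CPM with CNOT1 siRNA (log2 0.57, FDR 0.0059), and the libraries labelled replicate 3 were at 778 and 630 CPM. HARS was at 152, 160 and 149 CPM and at 191, 219 and 191 CPM (log2 0.38), with 207 and 153 CPM in the libraries left out.

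PARS2 changed most among the mitochondrial members of the polysomal RNA, from 12, 9.54 and 8.94 CPM to 18.1, 20.5 and 15 CPM (log2 0.81), with 15.9 and 11.4 CPM in the libraries labelled control and CNOT1 siRNA replicate 3. TARS2 went from 106, 103 and 95.6 CPM to 123, 136 and 131 CPM (log2 0.36), with 142 and 109 CPM in those libraries. CARS2 was the lower member, at 57.0, 49.2 and 48.1 CPM against 40.3, 39.1 and 35.0 CPM (log2 -0.43), with 31.9 and 46.3 CPM in the libraries left out. AIMP2 went from 82.1, 82.7 and 70.3 CPM to 129, 146 and 120 CPM (log2 0.75, FDR 1.5e-05), with 125 and 61.1 CPM in those libraries. In each of these 4 genes the library labelled control lay on the side of the CNOT1 siRNA group and the library labelled CNOT1 siRNA on the side of the control group. EPRS did not show this order, as the libraries left out lay above all others of its groups. Nor did NARS, whose library labelled CNOT1 siRNA lay at the level of its own group. AIMP1 was at 84.2, 102 and 95.0 CPM and at 95.2, 90.7 and 104 CPM (log2 0.04, FDR 0.82).

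The polysome shift is the log2 response to CNOT1 siRNA among polysomal libraries less the response among subpolysomal ones. It was called higher in 13 members and lower in 0, where 9.99% of all genes were higher and 7.51% lower. Of the fitted values, called or not, 27 were above 0 and 11 below. DESeq2 called 2 members lower, IARS2 (log2 -0.54, adjusted p = 0.0496) and LARS2 (-0.33, adjusted p = 0.0462). The mitochondrial class held 8 of the 13 (median 0.41), the cytosolic class 3 (median 0.05) and the scaffold class both of its genes, while the median of all genes was 0.07. With RLE factors 9 members were higher, and 6.81% of all genes were higher and 9.52% lower. With both polysomal replicate 3 libraries, 6 members were higher (QARS, AIMP1, HARS2, RARS2, SARS2 and VARS2), where 3.26% of all genes were higher and 2.4% lower.

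SARS2, the mitochondrial seryl enzyme, had the largest shift (log2 1.26, FDR 6.68e-05), though it is the least abundant enzyme, at 11.8, 9.58, 12.5 and 11.5 CPM in control and 6.69, 5.81, 6.66 and 6.89 CPM in CNOT1 siRNA subpolysomal RNA. QARS shifted by log2 1.12 (SE 0.13, FDR 1.49e-05), through its fall in subpolysomal RNA, since its polysomal level was 280, 269 and 256 CPM with control siRNA and 249, 273 and 263 CPM with CNOT1 siRNA (log2 -0.04, FDR 0.82). RARS2 (0.67, FDR 0.00339) and AIMP1 (0.69, FDR 0.00405) showed the same form, with polysomal log2 changes of -0.07 and 0.04. PARS2 (0.96, FDR 0.00427) and AIMP2 (0.68, FDR 0.00175) shifted through a rise in polysomal RNA, and both lost the call with the replicate 3 libraries in the fit. Both genes were also called higher in input RNA, AIMP2 by about as much, so the polysomal rise went with a rise in mRNA level. NARS, the asparaginyl enzyme, was at 188, 204, 150 and 197 CPM in control and 153, 175, 145 and 156 CPM in CNOT1 siRNA subpolysomal RNA, and at 257, 287 and 289 CPM and 332, 331 and 357 CPM in polysomal RNA (shift 0.52, FDR 0.00726), with 404 and 331 CPM in the polysomal libraries left out.

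**Figure D5:**
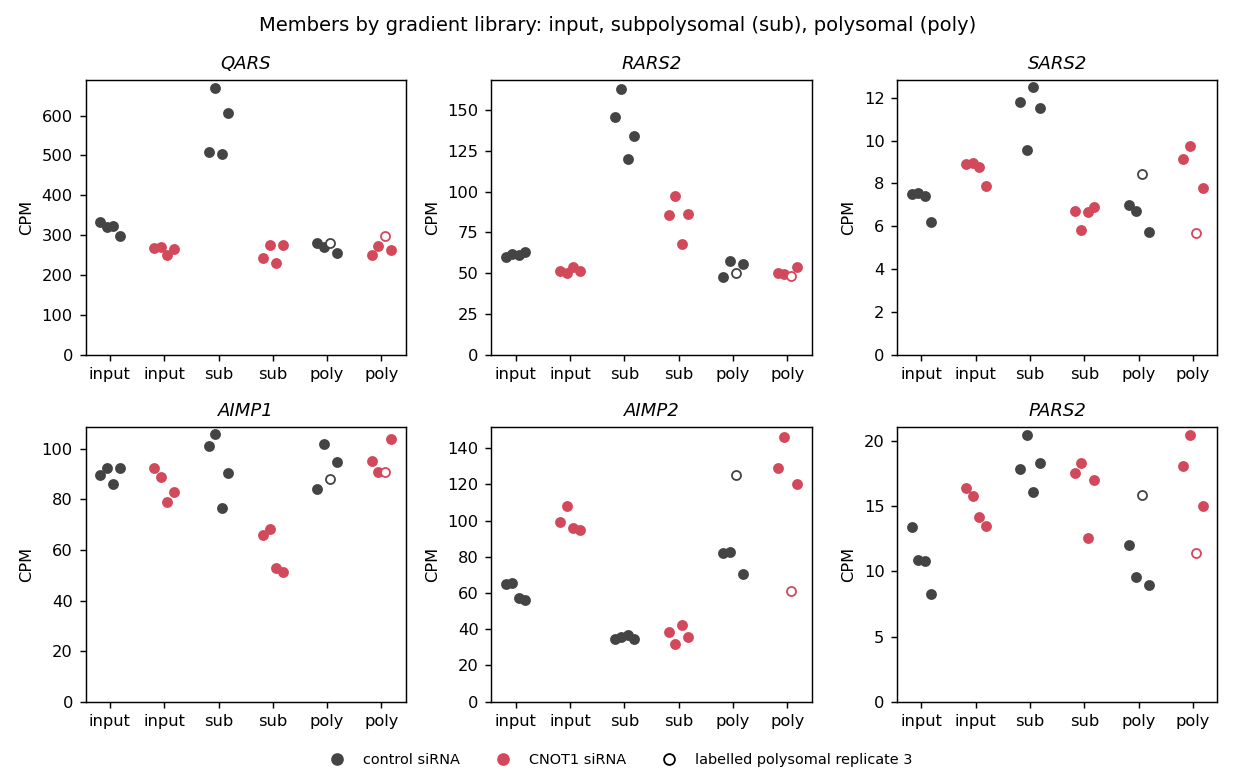
CPM of QARS, RARS2, SARS2, AIMP1, AIMP2 and PARS2 in every gradient library with control siRNA (grey) or CNOT1 siRNA (red), with open points for the polysomal libraries labelled replicate 3. QARS falls from 503 to 668 CPM to 231 to 276 CPM in subpolysomal RNA with a flat polysomal level, and the open points of AIMP2 and PARS2 lie with the opposite siRNA group.

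The ratio of cytosolic to mitochondrial synthetase mRNA was 5.75 ± 0.37 (SD, n = 4) with control and 5.34 ± 0.426 with CNOT1 siRNA in input RNA, 3.94 ± 0.16 and 4.01 ± 0.328 in subpolysomal RNA, and 4.95 ± 0.301 and 4.62 ± 0.349 (n = 3) in polysomal RNA. The ranges overlapped in each fraction. Between libraries of the same number, the ratio was lower with CNOT1 siRNA in all 4 input pairs (5.39 to 4.97, 5.67 to 5.29, 6.27 to 5.95 and 5.68 to 5.16) and in all 3 polysomal pairs left in the fit (4.67 to 4.41, 4.92 to 4.42 and 5.27 to 5.02). The subpolysomal pairs went both ways, from 3.75 to 3.78, 4.14 to 3.96, 3.91 to 4.49 and 3.94 to 3.82. This difference was not tested. The polysomal libraries labelled replicate 3 gave 5.44 for control and 5.69 for CNOT1 siRNA.

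TNRC6A and TNRC6B encode GW182 proteins, which link Argonaute to the Ccr4-Not complex. After their depletion 0 of 38 members were called, as were 0.0% of the 14064 genes tested higher and 0.0% lower by edgeR, and 0 members reached an unadjusted p under 0.05. DESeq2 called 0 members too, and 7 genes higher and 2 lower over all. Over all genes, 173 were higher and 116 lower at an unadjusted p under 0.05. TNRC6A (log2 -1.8, FDR 1) and TNRC6B (log2 -1.68, FDR 1) were not called either, so changes of that size were not detectable by this fit with 2 libraries per group. With the replicate block the fit called 520 genes higher and 243 lower, and 0 members. The fitted value was below 0 for 17 of 20 cytosolic members (median -0.12) and 13 of 16 mitochondrial members (median -0.17), with a median of -0.03 over all genes. AIMP1 was at 69.2 and 88.1 CPM with control and 58.2 and 79.9 CPM with TNRC6A/B siRNA, and AIMP2 at 83.1 and 40.2 CPM and at 73.0 and 43.2 CPM, so that the replicates of a group differed more than the groups. The ratio of the classes was 5.41 and 5.99 with control and 5.94 and 6.35 with TNRC6A/B siRNA.

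The amino acid response genes served as a comparison for the synthetases. After CNOT1 siRNA, input RNA had 9 of 23 listed genes higher and 3 lower, the former including CHAC1 (log2 2.72), a glutathione-degrading enzyme, and the transcription factor CEBPB (log2 1.32), both named after their values were seen. ATF4 itself (log2 -0.32, FDR 0.12) and ASNS, asparagine synthetase (log2 -0.06, FDR 0.809), were not called. The cytosolic synthetases with TGATGNAA in the promoter had a median of 0.07 in the same comparison with 0 higher and 1 lower of 7, and those without it a median of 0.04 with 1 higher and 2 lower of 9. All genes had 19.6% higher and 21.1% lower there, so these counts are too small to set the groups apart. The list had 5 higher and 7 lower in the eIF4A1 IP, 2 and 7 in the eIF4A2 IP, 3 and 6 in the DDX6 IP, and 13 higher and 2 lower in polysomal against subpolysomal RNA. After CNOT1 siRNA it had 9 and 0 in subpolysomal RNA, 6 and 2 in polysomal RNA, and 1 and 2 in the shift. For these lists and the partner genes, the shares of all genes higher and lower were 26.1% and 26.5% in the eIF4A1 IP, 24.5% and 25.8% in the eIF4A2 IP, 22.7% and 23.3% in the DDX6 IP, and 33.7% and 38.4% in polysomal against subpolysomal RNA. After CNOT1 siRNA they were 17.7% and 24.3% in subpolysomal RNA, 17.1% and 14.6% in polysomal RNA, and 9.99% and 7.51% in the shift.

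ATF4 mRNA moved opposite to the cytosolic synthetases in the IPs and on the gradient. It was at 563, 541 and 525 CPM in total RNA and higher in the eIF4A1 IP, at 1440, 1820 and 1380 CPM (log2 1.51), with log2 values of 0.77 in the eIF4A2 IP and 1.44 in the DDX6 IP, and it was subpolysomal in control cells (log2 -1.46, FDR 1.6e-07). ASNS was lower in the eIF4A1 IP (log2 -0.95) and the DDX6 IP (-0.97), at -0.59 (FDR 0.0691) in the eIF4A2 IP, and polysomal (0.77).

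The partner list held genes for other steps of tRNA charging, and 12 of its symbols were tested. Of these, 1 was higher and 7 lower in the eIF4A1 IP, 1 and 5 in the eIF4A2 IP, 1 and 6 in the DDX6 IP, and 5 and 7 in polysomal against subpolysomal RNA. After CNOT1 siRNA, 2 were higher and 5 lower in input RNA, 2 and 4 in subpolysomal RNA, 2 and 2 in polysomal RNA, and 2 and 1 in the shift. With eIF4A2 against DDX6, 1 partner gene was higher and 6 lower, and 1 and 4 amino acid response genes, where 9.82% of all genes were higher and 11.3% lower. The eIF4A2 against eIF4A1 comparison had 1 partner gene higher and 0 genes of the response list, where 0.973% of all genes were higher and 0.0858% lower. Neither list had a call after TNRC6A/B siRNA or between the DDX6 and eIF4A1 IPs. EEF1E1, the third auxiliary protein of the multisynthetase complex, differed from AIMP1 and AIMP2 in not being called in any IP against total RNA (log2 -0.04, -0.47 and 0.23 for eIF4A1, eIF4A2 and DDX6). It was subpolysomal in control cells (log2 -0.53, FDR 8.6e-05), and its polysome shift after CNOT1 siRNA was 0.55 (FDR 0.0105). It was lower in subpolysomal RNA after CNOT1 siRNA (log2 -0.38, FDR 0.00252) and not called in polysomal RNA (log2 0.16, FDR 0.265).

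Several members overlap other genes, and the strand option of the counting was not stated, so their counts can hold reads of a neighbour. On GRCh37, HARS (chr5:140052620-140071122) and HARS2 (chr5:140071015-140078890) overlap head to head, and on their own strands HARS overlaps DND1, HARS2 overlaps ZMAT2 and SARS2 overlaps a coding gene without a symbol. AIMP1 overlaps TBCK and AIMP2 overlaps EIF2AK1, both on the opposite strand, as do MARS and DDIT3, AARS and DDX19B, KARS and TERF2IP, YARS2 and DNM1L, WARS and WDR25, CARS2 and ING1, YARS and S100PBP, and AARS2 and TMEM151B. EARS2 overlaps GGA2 on its own strand and UBFD1 on the other. QARS (chr3:49133365-49142563, minus strand), RARS2 (chr6:88223177-88299746, minus strand), PARS2 (chr1:55222571-55230196, minus strand) and EPRS (chr1:220141942-220219872, minus strand) overlap no other coding gene of the annotation.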

How the data were processed

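The deposited files hold counts, which the authors made with TopHat2 on hg19 and htseq-count from TruSeq stranded mRNA libraries, and are raw, per gene symbol and library. A deposited table of the authors' own edgeR tests was not used. The members, lists and tests were chosen with earlier results of these data known, including the choice to leave both polysomal replicate 3 libraries out. Counts were fitted with edgeR 4.0.16 (R 4.3.3, limma 3.58.1): filterByExpr, TMM factors and quasi-likelihood F-tests, two-sided, with 12, 22 and 4 libraries in 1 fit each and FDR over all genes tested. Printed gradient CPM are scaled over all 24 libraries, and overlap in the naming rule was judged on the 22 of the fit. Fold changes of the fits are edgeR estimates. Scripts were tested on simulated data. DESeq2 1.42.0, RLE factors, no filter, the compared libraries alone, a replicate block and omission of single libraries were alternatives.

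Values in every library are given for the member of each class with the largest and the second largest change in each direction, if called, without overlap and at 10 CPM or more, and for AIMP1 and AIMP2. Same-numbered libraries deviated together in the RIP experiment (correlation of deviations from group means 0.175 to 0.884) and between control and CNOT1 siRNA within input (0.127 to 0.582), subpolysomal (0.749 to 0.869) and polysomal RNA (0.432 to 0.76), so the numbers pair them. Between control subpolysomal and polysomal RNA they did not (-0.676, 0.278 and -0.604). With 2 pairs, the TNRC6 libraries correlated at 0.929. Promoters and overlaps were matched by symbol: 32 of 38 members had a promoter entry. The values of 1 gene of the partner list are not reported here.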

Additional observations from a re-analysis of the deposited data

Results flagged for a closer look

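Among 132 groups of 4 libraries, 9 held a library far from the other 3 by Dixon's test, and chance alone flags about 1 in 20 groups. In the library labelled control siRNA polysomal replicate 3, AARS stood at 244 CPM (others 137 to 143) and EPRS at 778 CPM (others 278 to 358). In the library labelled CNOT1 siRNA polysomal replicate 3, the summed scaffold mRNA was 152 CPM (others 224 to 236). These libraries are those whose CNOT1 level goes against their labels. In control siRNA input, replicate 1 held IARS2 at 306 CPM (others 266 to 271) and MARS2 at 60.0 CPM (others 49.7 to 50.3), and replicate 4 held VARS2 at 25 CPM (others 28.2 to 28.6). LARS2 was at 41.8 CPM in control siRNA subpolysomal replicate 1 (others 39.1 to 39.5). In CNOT1 siRNA polysomal RNA, NARS was at 357 CPM in replicate 4 (others 331 to 332) and VARS2 at 27.0 CPM in replicate 2 (others 24.0 to 24.5).

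The CNOT1 siRNA effect differed between polysomal and subpolysomal RNA, by the interaction term of the edgeR fit, in 13 members, all with the higher log2 value in polysomal RNA. The log2 differences were 1.26 for SARS2, 1.12 for QARS, 0.96 for PARS2, 0.69 for AIMP1, 0.68 for AIMP2, 0.67 for RARS2, 0.6 for VARS2, 0.53 for HARS2, 0.52 for NARS, 0.51 for MARS2, 0.46 for TARS2, 0.44 for HARS and 0.37 for YARS2. With both polysomal replicate 3 libraries, HARS, NARS, MARS2, PARS2, TARS2, YARS2 and AIMP2 lost the call.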

How the results depend on the processing

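No called result changed direction. With DESeq2 the eIF4A1 IP had 0 members higher (1 by edgeR), eIF4A2 over eIF4A1 had 2 higher (0), eIF4A2 against DDX6 had 12 lower (7), DDX6 over eIF4A1 had 5 higher (0), polysomal RNA after CNOT1 siRNA had 2 lower (1) and the shift had 2 lower (0). With RLE factors the eIF4A1 IP had 0 higher and polysomal RNA 7 higher (11). Without the filter the counts were 0 higher for eIF4A1 and 1 (2) for eIF4A2 against total RNA, 4 lower for eIF4A2 against DDX6, 1 higher for DDX6 over eIF4A1, 3 higher (7) and 1 lower (5) in input, 4 higher in polysomal RNA and 8 higher (13) in the shift. On the compared libraries alone they were 0 higher for eIF4A1, 1 (0) for DDX6 and 16 in input. With both polysomal replicate 3 libraries they were 1 higher and 2 lower in input, 0 and 0 in polysomal RNA and 6 higher in the shift, whose cytosolic minus mitochondrial median was -0.22 (-0.36). The replicate block gave 2 higher for DDX6, 3 for eIF4A2 over eIF4A1, 14 lower and 4 higher for eIF4A2 against DDX6, 7 higher for DDX6 over eIF4A1 and 11 higher in input. Elsewhere the blocked counts stayed within 1.5 times, and of the calls made without the block 1 was lost (VARS2, polysomal against subpolysomal, FDR 0.079). The causes were not tested. Of 811 recomputed values of single members, 739 stayed on their side of the threshold and 72 lost significance.

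Leaving out 1 library at a time gave 0 to 1 members higher for eIF4A1, 1 to 2 for eIF4A2, and, for eIF4A2 against DDX6, 0 to 1 higher (0 without DDX6 IP replicate 2) and 2 to 4 lower (2, 3 and 4 without eIF4A2 IP replicates 1, 2 and 3, and 3, 3 and 4 without DDX6 IP replicates 1, 2 and 3). In input it gave 4 to 7 higher (4 without control replicate 4) and 2 to 5 lower (2 without control replicate 3 or CNOT1 siRNA replicate 1 or 2, and 3 without control replicate 1, 2 or 4), in polysomal RNA 7 to 11 higher (7 without control replicate 1 or 4 or CNOT1 siRNA replicate 2) and in the shift 10 to 15 higher and 0 to 1 lower (1 without control subpolysomal replicate 2). The cytosolic minus mitochondrial median ran from -0.08 to 0.23 for eIF4A2 over eIF4A1, -0.24 to -0.05 for eIF4A2 against DDX6, 0.45 to 0.59 for polysomal against subpolysomal RNA, -0.2 to -0.06 in input, 0.04 to 0.23 in subpolysomal RNA, -0.26 to -0.08 in polysomal RNA, -0.44 to -0.33 for the shift and -0.21 to 0.21 after TNRC6A/B siRNA, so that it changed sign for eIF4A2 over eIF4A1 and after TNRC6A/B siRNA.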
